A study of Homo sapiens with 100 samples.

Results

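Transcripts of IRF8 and of the PU.1 family genes SPI1 (which encodes PU.1), SPIB (Spi-B) and SPIC (Spi-C) were followed across drug treatments and genotypes in TMD8. TMD8 is an established human lymphoma line (ABC-type diffuse large B cell lymphoma) that relies on the antigen receptor and its kinase BTK to grow. The genes were taken by symbol, each matched 1 row, and they are 4 of the 78894 genes in the count table. RNA was counted at transcript 3' ends, so a gene's count does not grow with its length, and levels are given as CPM, the count scaled to a common library total.

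In the 24 h set, 5 wild-type (WT) and 6 A428D single-cell clones were each cultured with 8 conditions: DMSO, the solvent; zelebrudomide; bexobrutideg; pomalidomide; venetoclax; and venetoclax with zelebrudomide, with bexobrutideg or with pomalidomide. This gave 88 libraries in 16 groups of 5 or 6. A separate set held untreated cultures of the same 5 WT clones, of the 6 A428D clones and of the parental line, 12 libraries in all. A428D is a BTK change at the endogenous locus per the growth and design texts, whereas the sample titles place it in SF3B1, and counts of 3' ends cannot check the base. Each replicate is 1 clone, so a difference between genotypes also holds what sets single clones apart. No dose was stated in the labels, so compounds were compared at a common time but not at known doses.

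IRF8 is an interferon regulatory factor of B cells and myeloid cells that binds DNA weakly alone and is recruited by PU.1 or Spi-B to joint ETS-IRF sites, where it controls B cell genes such as BCL6 and CIITA. PU.1, Spi-B and Spi-C share a DNA-binding ETS domain that reads a GGAA core. PU.1 directs early B cell and myeloid development, Spi-B is abundant in mature B cells and is known as a partner of IRF4 in lymphomas of the activated B cell type, and Spi-C is best known from red pulp macrophages that recycle iron and can oppose PU.1 in B cells. Zelebrudomide degrades BTK and also directs the ligase subunit cereblon to the Ikaros factors IKZF1 and IKZF3. Bexobrutideg degrades BTK without that second activity, pomalidomide targets the Ikaros factors but not BTK, and venetoclax blocks BCL2, which keeps cells from apoptosis.

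In GENCODE release 29 on GRCh38, IRF8 (ENSG00000140968) lies on chromosome 16 from 85898803 to 85922609 on the plus strand, and SPI1 (ENSG00000066336) on chromosome 11 from 47354860 to 47378576 on the minus strand. SPIB (ENSG00000269404) lies on chromosome 19 from 50418938 to 50431313 and SPIC (ENSG00000166211) on chromosome 12 from 101475421 to 101486997, both on the plus strand. All 4 are protein coding. SPIB overlaps another annotated gene on its own strand, ENSG00000142539, and its estimated count was not whole in 90 of 100 libraries (SPIC: 46, SPI1: 4, IRF8: 2), so reads may have been shared between overlapping features there. IRF8 overlaps 1 other annotated gene on its own strand, ENSG00000274134.

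Sequence next to the gene starts is shown because IRF8 and the PU.1 family read ETS and IRF motifs and because IKZF1 and IKZF3, targets of 2 of the compounds, read a related core. RefSeq's table (GRCh38.p14) held promoter entries for 3 of the 4 genes. The SPIB and SPIC stretches below are the 250 bases before the RefSeq start (chr19:50418688-50418937 and chr12:101475086-101475335), both read 5' to 3' on the plus strand. Capitals mark matches to GGAA on either strand (TTCC on the strand shown) and to the IRF repeat GAAANNGAA.
SPIB: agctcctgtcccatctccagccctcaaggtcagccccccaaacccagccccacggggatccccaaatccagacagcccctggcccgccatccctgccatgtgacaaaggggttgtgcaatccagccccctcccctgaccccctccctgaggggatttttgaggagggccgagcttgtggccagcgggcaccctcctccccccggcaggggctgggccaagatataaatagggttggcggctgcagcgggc
SPIC: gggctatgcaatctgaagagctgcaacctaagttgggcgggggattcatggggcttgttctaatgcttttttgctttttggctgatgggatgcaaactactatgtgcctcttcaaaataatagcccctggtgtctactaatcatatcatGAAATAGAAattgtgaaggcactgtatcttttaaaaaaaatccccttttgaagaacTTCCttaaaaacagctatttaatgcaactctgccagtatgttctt

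The SPIB stretch had a GC content of 66.4% and no match to GGAA, whereas 92.8% of 34788 RefSeq stretches of the same length held at least 1. The SPIC stretch had a GC content of 39.2%, 1 GGAA match 45 bases before the start and 1 IRF repeat, which 6.89% of all stretches held. Neither matched the joint ETS-IRF motif GGAANNGAA (6.59% of all stretches) or the PU.1-type motif GAGGAA (23.6%). The table's IRF8 entries belong to starts inside the annotated gene, and near the first of them lay 1 match to the Ikaros-type motif TGGGAA, 33 bases before that start. It is printed with its flanks (chr16:85902785-85902814, plus strand, capitals the match, which reads TGGGAA on the minus strand), since the Ikaros factors are what pomalidomide and zelebrudomide act on.
IRF8: gtggctgcaggtTTCCCAcggagctttcag
TGGGAA was found in 20.8% of all stretches and had no match in the SPIB or the SPIC stretch. TGGGAA and GAGGAA both contain GGAA. A match of letters describes the stretch and does not show that a factor binds there, and these counts do not measure binding.

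Libraries of the 24 h set held 1476519 to 9388855 counts and untreated ones 10400854 to 12501775. The shallowest, WT clone 3 under bexobrutideg with venetoclax, stood apart: its median correlation with the other 24 h libraries was 0.87, while the lowest of the others was 0.962. It held IRF8 at 111 CPM against 50.6 to 64.7 in the other 4 clones of its group, SPIB at 127 against 611 to 674, and SPI1 at 3.49 (7 counts) against 15.2 to 20.9. BTK was at 38.9 CPM there against 80.3 to 82.1. All 16 groups share 1 estimate of spread, so leaving this library out also moved SPIB and SPI1 calls in groups it does not belong to, and results whose call or value it changes most are given with and without it.

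B cell markers were present: 8 of 8 B cell markers averaged at least 1 CPM over the 24 h libraries, and their sum ran from 3230 to 6270 CPM, lowest in the shallowest library. Of 10 myeloid markers, which matter here because PU.1, Spi-C and IRF8 are also myeloid factors, only CD68 reached 1 CPM, and CD14, LYZ and MPO averaged 0.069, 0.189 and 0.00496 CPM. Erythroid and T or NK cell markers summed to at most 1.22 and 1.42 CPM. Of the 5 plasmacytoid dendritic cell markers, IL3RA was not matched by symbol. GZMB ran from 478 to 1850 CPM, while LILRA4 averaged 2.9, CLEC4C 0.648 and NRP1 0.0183 CPM. Of the plasma cell markers, 3 of 4 reached 1 CPM on average, SDC1 not among them (0.69). In bulk RNA, fewer cells with a transcript and less transcript per cell cannot be told apart.

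IRF8 fell most under pomalidomide, less under zelebrudomide, and did not pass the test under bexobrutideg. In WT clones 1 to 5 it measured 57.3, 47.1, 48.1, 56.7 and 50 CPM with DMSO (51.8 ± 4.84, SD, n = 5), and 12.7, 11.5, 12.2, 11.7 and 11 CPM with pomalidomide. The highest pomalidomide library lay far below the lowest DMSO library. The log2 fold change was -2.13 ± 0.13 (SE; 22.8% of the DMSO level; edgeR's quasi-likelihood test with Benjamini-Hochberg adjustment, adjusted p = 2.99e-22), lower in 5 of 5 clones. With zelebrudomide the WT clones measured 33.3, 29.3, 37.7, 26.4 and 33.1 CPM, again all below DMSO (-0.70 ± 0.13, adjusted p = 3.33e-05). With bexobrutideg they measured 57.9, 50.6, 49.2, 52.4 and 57.9 CPM, a range that overlapped DMSO, with clones 1 and 5 above the highest DMSO value (0.05 ± 0.12, adjusted p = 0.916, 95% interval -0.19 to 0.29).

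The A428D clones showed the same order. IRF8 measured 49.1 to 59.2 CPM with DMSO (median 52.5), 21.5 to 36.4 with zelebrudomide, 36.7 to 58.2 with bexobrutideg and 12.1 to 18 with pomalidomide. The zelebrudomide and pomalidomide ranges did not overlap DMSO, and the bexobrutideg range did. The changes were -0.91 ± 0.11 for zelebrudomide (adjusted p = 1.23e-08) and -1.83 ± 0.12 for pomalidomide (adjusted p = 4.94e-21), each lower in 6 of 6 clones. For bexobrutideg the change was -0.21 ± 0.11 (adjusted p = 1; 95% interval -0.43 to 0.0065; lower in 5 of 6 clones). None of these responses differed between genotypes past the threshold: A428D minus WT was -0.21 ± 0.17 for zelebrudomide (adjusted p = 0.752), -0.26 ± 0.17 for bexobrutideg (0.753) and 0.31 ± 0.18 for pomalidomide (1).

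**Figure D1:**
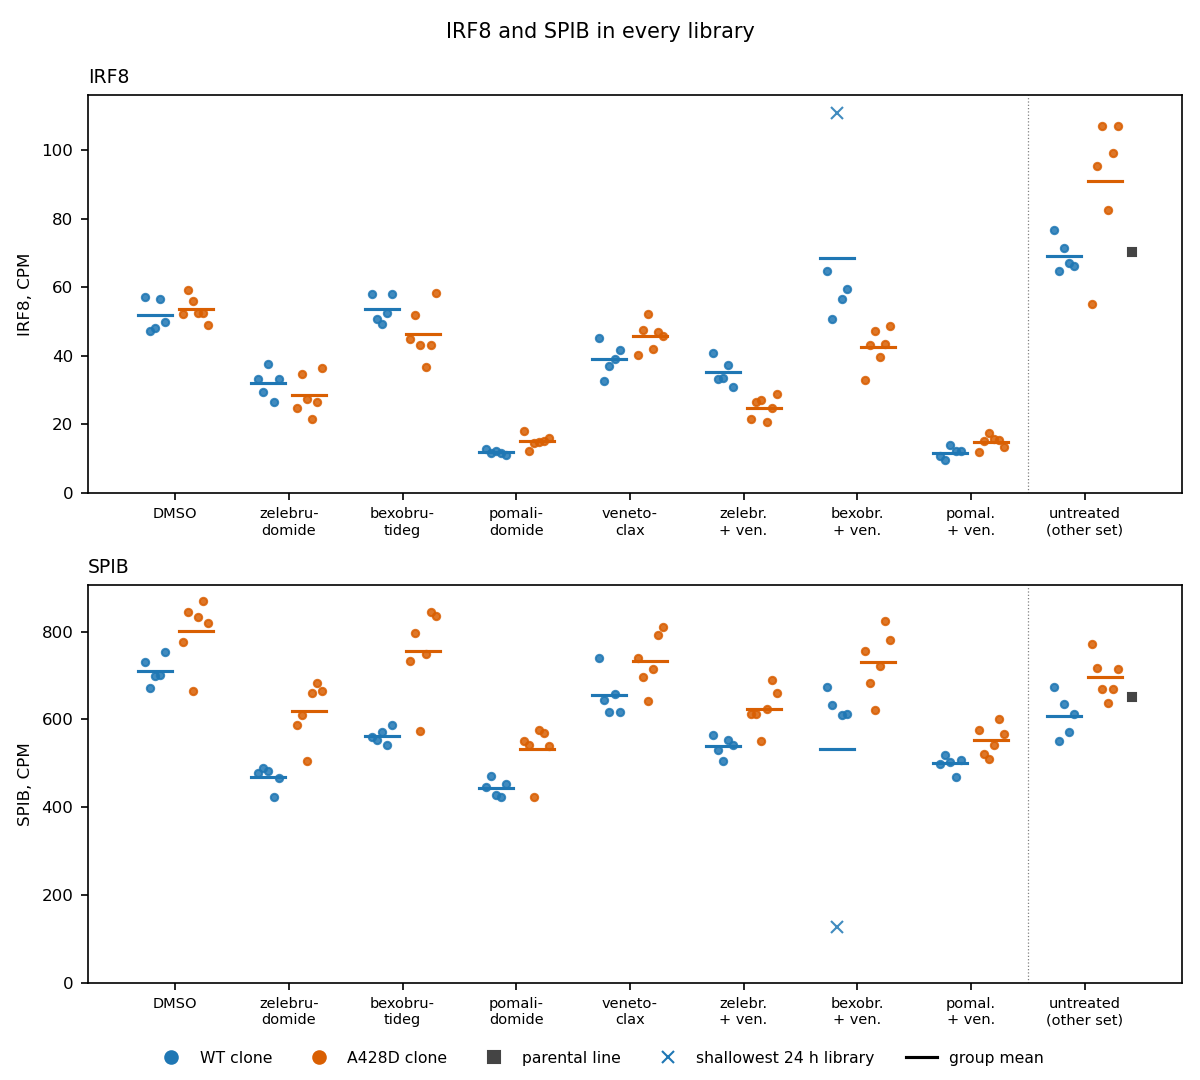
IRF8 (top) and SPIB (bottom) in CPM in every library by condition, WT clones in blue and A428D clones in orange, with group means as bars, untreated cultures as a separately scaled set at the right and the shallowest 24 h library as a cross. IRF8 sits at 9.52 to 18 CPM in all 22 libraries with pomalidomide and at 20.8 CPM or above in all others of the 24 h set; the cross is the highest IRF8 and the lowest SPIB value of that set.

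The compounds were set against each other in 3 pairs per genotype, with p-values adjusted over all genes. IRF8 was lower with zelebrudomide than with bexobrutideg, with a log2 fold change of -0.75 ± 0.13 in WT clones (adjusted p = 5.65e-05) and -0.70 ± 0.11 in A428D clones (adjusted p = 2.92e-05). It was 2.7-fold higher with zelebrudomide than with pomalidomide in WT (1.43 ± 0.14, adjusted p = 3.55e-13) and 1.89-fold higher in A428D (0.92 ± 0.12, adjusted p = 9.91e-08). It was 4.53-fold higher with bexobrutideg than with pomalidomide in WT (2.18 ± 0.14, adjusted p = 9.88e-23) and 3.06-fold in A428D (1.61 ± 0.12, adjusted p = 2.38e-18). All of these pointed the same way in every clone. Each pair shares its libraries with the comparisons against DMSO and is not separate evidence.

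Venetoclax alone moved IRF8 less. In WT clones 1 to 5 it measured 45.2, 32.7, 37, 39 and 41.6 CPM, all below the lowest DMSO value, a change of -0.41 ± 0.12 (adjusted p = 0.00688). The call did not hold without WT clone 2 (-0.34, adjusted p = 0.0585) or WT clone 4 (-0.33, adjusted p = 0.0767). In A428D clones it ran from 40.3 to 52.2 CPM and the change was -0.22 ± 0.11 (adjusted p = 0.162; with clone as a block, -0.23, adjusted p = 0.0398), lower in 6 of 6 clones.

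Combined with venetoclax, pomalidomide left IRF8 at 10.8, 9.52, 13.9, 12.2 and 12.1 CPM in WT clones and at 11.9 to 17.4 CPM in A428D clones. These were -2.15 ± 0.14 (adjusted p = 1.86e-22) and -1.85 ± 0.12 (adjusted p = 9.95e-22) against DMSO, and -0.01 ± 0.15 and -0.02 ± 0.13 against pomalidomide alone, with 95% intervals of -0.3 to 0.27 and -0.27 to 0.23. Against venetoclax alone IRF8 was -1.74 ± 0.14 in WT (adjusted p = 1.6e-17) and -1.62 ± 0.12 in A428D (adjusted p = 8.43e-19).

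Zelebrudomide with venetoclax gave 40.8, 33.1, 33.6, 37.2 and 30.9 CPM in WT clones and 20.8 to 28.9 CPM in A428D clones, and these ranges did not overlap. Against DMSO the changes were -0.55 ± 0.13 (adjusted p = 0.000655) and -1.11 ± 0.12 (adjusted p = 9.12e-12). Adding zelebrudomide to venetoclax changed IRF8 by -0.88 ± 0.12 in A428D (adjusted p = 9.81e-08, lower in 6 of 6 clones) and by -0.15 ± 0.13 in WT (adjusted p = 0.448; 95% interval -0.4 to 0.11). The difference in response to the combination, A428D minus WT, was -0.55 ± 0.17 (adjusted p = 0.0549; with clone as a block, -0.56, adjusted p = 0.00374). The direct comparison of the genotypes under this combination passed the test (A428D against WT, -0.53 ± 0.10, adjusted p = 0.0026).

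Bexobrutideg with venetoclax is where the shallowest library decides. WT clones 1 to 5 measured 64.7, 50.6, 111, 56.6 and 59.5 CPM (68.5 ± 24.4; without clone 3, 57.8 ± 5.9, n = 4), and A428D clones 32.9 to 48.8 CPM. Against DMSO the WT change was 0.37 ± 0.12 (adjusted p = 0.0226) with that library and 0.15 (adjusted p = 0.388) without it, and the A428D change was -0.33 ± 0.11 (adjusted p = 0.0308), a call that was lost when any of 9 of the 11 clones was left out (largest adjusted p = 0.177, without A428D clone 1). The difference in response was -0.70 ± 0.17 (adjusted p = 0.00932) with it and -0.47 (adjusted p = 0.0753) without it, or -0.48 (adjusted p = 0.00148) without it and with clone as a block. Against venetoclax alone IRF8 rose in WT, 0.78 ± 0.13 (adjusted p = 3.21e-06), and still 0.54 (adjusted p = 0.000317) without that library. In A428D the same comparison gave -0.11 ± 0.11 (adjusted p = 1).

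Between genotypes IRF8 differed past the threshold in 1 of 9 conditions, zelebrudomide with venetoclax above. With DMSO A428D against WT was 0.03 ± 0.08 (adjusted p = 0.834; 95% interval -0.12 to 0.18), and with pomalidomide 0.35 ± 0.10 (adjusted p = 0.0764). Under bexobrutideg with venetoclax it was -0.70 ± 0.20 (adjusted p = 0.0945), and -0.45 (adjusted p = 0.0193) without the shallowest library. In untreated cultures IRF8 measured 76.6, 64.7, 71.4, 67.2 and 66.2 CPM in WT clones, 70.3 in the parental line, and 55.1, 95.5, 107, 82.7, 99.1 and 107 CPM in A428D clones 1 to 6. A428D clone 1 lay below every WT clone and the other 5 lay above every WT clone. The difference was 0.40 ± 0.15 (adjusted p = 0.174), and 0.50 (adjusted p = 0.000195) without A428D clone 1.

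SPIB fell with pomalidomide in both genotypes and with zelebrudomide in WT clones. In WT clones 1 to 5 it measured 731, 672, 698, 702 and 753 CPM with DMSO, 479, 490, 483, 423 and 466 with zelebrudomide and between 423 and 472 (median 447) with pomalidomide, with no overlap with DMSO. The changes were -0.60 ± 0.14 (adjusted p = 0.00278) and -0.68 ± 0.14 (adjusted p = 0.000314). With bexobrutideg it measured 560, 554, 572, 542 and 587 CPM, also below every DMSO library, and the change of -0.34 ± 0.14 did not pass (adjusted p = 0.258). Without the shallowest library of the set it did (-0.32, adjusted p = 0.00359). SPIB did not differ past the threshold between zelebrudomide and pomalidomide in WT (0.08 ± 0.14, adjusted p = 0.838; 95% interval -0.21 to 0.36), nor between zelebrudomide and bexobrutideg (-0.27 ± 0.14, adjusted p = 0.681; without that library -0.27, adjusted p = 0.036). Bexobrutideg against pomalidomide was 0.34 ± 0.14 (adjusted p = 0.0943; with clone as a block, 0.34, adjusted p = 0.0357).

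In A428D clones SPIB measured 665 to 869 CPM with DMSO, 423 to 577 with pomalidomide, 505 to 682 with zelebrudomide and 574 to 844 with bexobrutideg. Only the pomalidomide range lay apart from DMSO. The change was -0.59 ± 0.13 with pomalidomide (adjusted p = 0.000697). With zelebrudomide it was -0.38 ± 0.13 (adjusted p = 0.148; with clone as a block, -0.38, adjusted p = 0.0312; without the shallowest library, -0.37, adjusted p = 0.000151), lower in 6 of 6 clones. With bexobrutideg it was -0.09 ± 0.13 (adjusted p = 1; 95% interval -0.34 to 0.17). Bexobrutideg was above pomalidomide by 0.50 ± 0.13 (adjusted p = 0.00556), and zelebrudomide against bexobrutideg was -0.29 ± 0.13 (adjusted p = 0.511; without the shallowest library, -0.28, adjusted p = 0.00977). Of the 6 A428D clones, clone 3 had the lowest SPIB value under each of the 8 conditions. The differences in response between genotypes were 0.23 ± 0.19 for zelebrudomide (adjusted p = 0.766) and 0.25 ± 0.19 for bexobrutideg (adjusted p = 0.821), and with clone as a block and without the shallowest library, an alternative chosen after seeing the data, 0.23 (adjusted p = 0.00296) and 0.24 (adjusted p = 0.00255).

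With venetoclax alone SPIB measured 740, 644, 616, 657 and 617 CPM in WT (-0.12 ± 0.14, adjusted p = 0.558) and 642 to 811 CPM in A428D (-0.13 ± 0.13, adjusted p = 0.537). With venetoclax and pomalidomide it was 468 to 520 CPM in WT and 509 to 601 in A428D, below every DMSO library of the same genotype (-0.51 ± 0.14, adjusted p = 0.00317; -0.54 ± 0.13, adjusted p = 0.000862). With venetoclax and zelebrudomide it was 506 to 564 CPM in WT and 551 to 689 in A428D (-0.40 ± 0.14, adjusted p = 0.0334; -0.36 ± 0.13, adjusted p = 0.0316). These last 2 calls were lost when 1 of several clones was left out, with adjusted p up to 0.112 and 0.136, and without the shallowest library they were 1.71e-05 and 6.59e-05. With venetoclax and bexobrutideg the WT change was -0.41 ± 0.14 (adjusted p = 0.028) with the shallowest library and -0.18 (adjusted p = 0.0973) without it. Pomalidomide added to venetoclax gave -0.41 ± 0.13 in A428D (adjusted p = 0.0356, up to 0.109 when 1 clone was left out) and -0.39 ± 0.14 in WT (adjusted p = 0.0789; with clone as a block, -0.39, adjusted p = 0.0251).

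SPIB was higher in A428D than in WT clones under zelebrudomide (618 ± 65.9 against 468 ± 26.8 CPM; 0.38 ± 0.08, adjusted p = 0.0067) and bexobrutideg (756 ± 99.6 against 563 ± 17.2 CPM; 0.41 ± 0.09, adjusted p = 0.00896). The zelebrudomide ranges did not overlap. Under zelebrudomide with venetoclax the difference was 0.19 ± 0.06 (adjusted p = 0.0337), up to 0.0791 when 1 clone was left out. Library depth also differed between the genotypes under that combination. With DMSO it was 0.16 ± 0.07 (adjusted p = 0.173), and in untreated cultures, at 551 to 673 CPM in WT and 638 to 773 in A428D, 0.19 ± 0.06 (adjusted p = 0.0537).

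SPI1 was counted at low levels, with 54 to 193 counts per 24 h library apart from the shallowest. In WT clones 1 to 5 it measured 13.6, 14.3, 13.1, 12.3 and 16.8 CPM with DMSO, 14.6, 20.9, 24.5, 21.4 and 21.5 with zelebrudomide, 17.9, 21.1, 16.7, 19.7 and 22.8 with bexobrutideg and 14.3, 20.6, 16.8, 18.8 and 19.7 with pomalidomide. Every clone was higher with each of the 3 compounds than with DMSO, and the group ranges overlapped. The changes of 0.56 ± 0.21 (adjusted p = 0.108), 0.49 ± 0.21 (0.27) and 0.37 ± 0.21 (0.353) did not pass the test. With clone as a block, which compares each clone with itself, all 3 passed (0.56, adjusted p = 8.55e-05; 0.49, 0.00112; 0.37, 0.0121).

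Venetoclax alone in WT clones gave the lowest SPI1 group mean of the 16 groups (10.9 CPM), from values of 10.4, 10.5, 10.3, 11.8 and 11.4 CPM that were all under the lowest DMSO value (-0.36 ± 0.22, adjusted p = 0.208; with clone as a block, -0.36, adjusted p = 0.0111). Against venetoclax alone, SPI1 rose in WT when zelebrudomide (15.7 to 21.9 CPM; 0.75 ± 0.23, adjusted p = 0.0128) or pomalidomide (15.9 to 19.3 CPM; 0.72 ± 0.22, adjusted p = 0.0233) was added, in 5 of 5 clones each. These are the only 2 of 48 comparisons in which SPI1 passed, and leaving out 1 WT clone took adjusted p up to 0.0826 and 0.115. With bexobrutideg added it was 0.51 ± 0.23 (adjusted p = 0.121; without the shallowest library, 0.65, adjusted p = 0.0335). In A428D clones pomalidomide added to venetoclax gave 0.58 ± 0.20 (adjusted p = 0.0506; with clone as a block, 0.60, adjusted p = 5.94e-06), higher in 6 of 6 clones.

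In A428D clones the spread of SPI1 followed the clone. With DMSO clones 1 to 6 measured 19.6, 20.5, 12.6, 16.1, 10.9 and 13.1 CPM, and with pomalidomide 28.8, 27.1, 14.9, 17.8, 14.7 and 14.1. Clones 1 and 2 were the highest under both. The change with pomalidomide was 0.34 ± 0.19 (adjusted p = 0.375; with clone as a block, 0.33, adjusted p = 0.015), higher in 6 of 6 clones. With zelebrudomide it was 0.09 ± 0.19 (adjusted p = 0.978) and with bexobrutideg 0.11 ± 0.19 (adjusted p = 1), each higher in 4 of 6 clones. The difference in response to zelebrudomide was -0.47 ± 0.29 (adjusted p = 0.642; with clone as a block, -0.47, adjusted p = 0.0492). In none of 9 conditions did SPI1 differ between genotypes past the threshold; with DMSO the difference was 0.13 ± 0.15 (adjusted p = 0.65; 95% interval -0.17 to 0.43).

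In untreated cultures SPI1 lay below the levels of the DMSO cultures: 5.08, 6.22, 4.29, 4.76 and 3.76 CPM in WT clones, 4.66 in the parental line and 9.65, 8.58, 2.63, 7.38, 3.53 and 2.71 in A428D clones. The 2 sets were scaled apart and differ in depth and treatment, so what the set adds and what the exposure adds cannot be told apart, and no test was made.

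**Figure D2:**
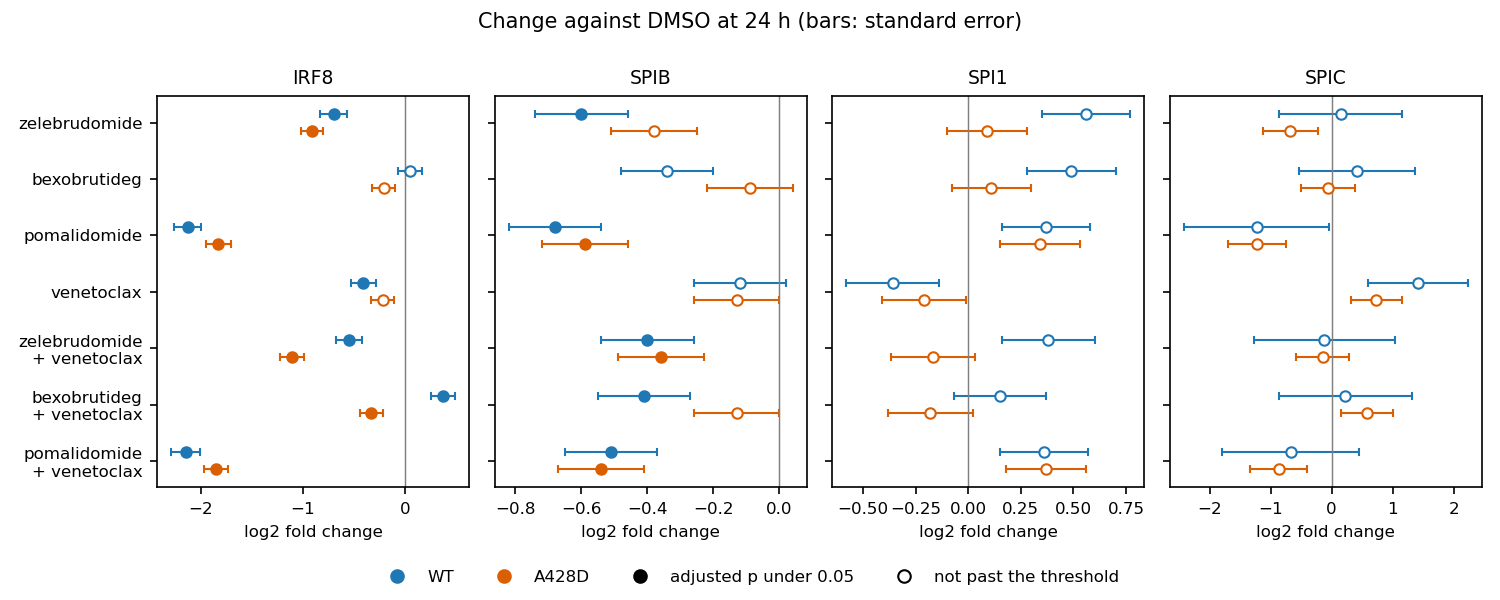
Log2 fold changes against DMSO at 24 h with standard errors as bars for the 4 genes, WT in blue and A428D in orange; filled points passed the adjusted p threshold of 0.05. Each panel has its own axis; IRF8 reaches -2.15 with pomalidomide and venetoclax in WT clones while no SPI1 or SPIC point is filled, and the filled WT point of IRF8 to the right of 0, for bexobrutideg with venetoclax, rests on the shallowest library.

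SPIC separated the genotypes in every condition. With DMSO it measured 1.02, 0.618, 1.18, 1.28 and 0.295 CPM in WT clones 1 to 5 (2 to 12 counts), and 3.05, 3.98, 17.1, 17.8, 16.2 and 18.2 CPM in A428D clones 1 to 6 (24 to 126 counts). Every A428D clone was above every WT clone, with clones 1 and 2 nearer to the WT range than clones 3 to 6. A428D was 13.6-fold above WT (3.77 ± 0.63, adjusted p = 0.00782). Untreated cultures showed the same split: 4.25, 0.421, 2.19, 3.02 and 1.71 CPM in WT clones, 2.15 in the parental line, and 6.43, 6.78, 45.5, 34.1, 37.7 and 43.6 CPM in A428D clones (3.66 ± 0.73, adjusted p = 0.0223; up to 0.0651 when WT clone 2, 3, 4 or 5 was left out).

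Under the other 7 conditions A428D exceeded WT by 2.93 ± 0.65 on the log2 scale with zelebrudomide (adjusted p = 0.0157) to 4.12 ± 0.63 with bexobrutideg and venetoclax (adjusted p = 0.00633; without the shallowest library, 4.27, adjusted p = 0.023), and the ranges were separate each time. With pomalidomide and venetoclax (3.57 ± 0.65, adjusted p = 0.015) the call was lost without WT clone 2 (3.47, adjusted p = 0.0515). The ranges nearly touched there, with the highest WT clone at 1.39 CPM and the lowest A428D clone at 1.41, 8 counts each. The same clones recur in every condition, so these separations are not independent of each other. The share of all genes with separate ranges was not counted. In the 24 h set the median over conditions was 3.11 and 3.21 CPM in A428D clones 1 and 2, 13.1 to 17.1 in clones 3 to 6, and 0.435 to 1.41 in the WT clones. The 2 A428D clones lowest in SPIC, 1 and 2, were also the 2 with the highest median SPI1 (21.5 and 19.7 CPM, against 12 to 15.1 in clones 3 to 6). Over the 8 conditions clone took 69.9% of the spread of SPIC among A428D libraries and treatment 27.1% (log2 of CPM + 0.5), and 63.3% and 25.6% for SPI1. In WT, treatment took more than clone for both, 50.6% against 27.7% for SPIC and 42.5% against 13.7% for SPI1 (73.7% and 11.6% without the shallowest library). For IRF8 treatment took most of the spread in both genotypes, with 93.6% of its spread by treatment and 2.06% by clone in A428D, and 95.5% and 1.28% in WT. For SPIB in WT the share by treatment was 32.3%, and 92.7% without the shallowest library.

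**Figure D3:**
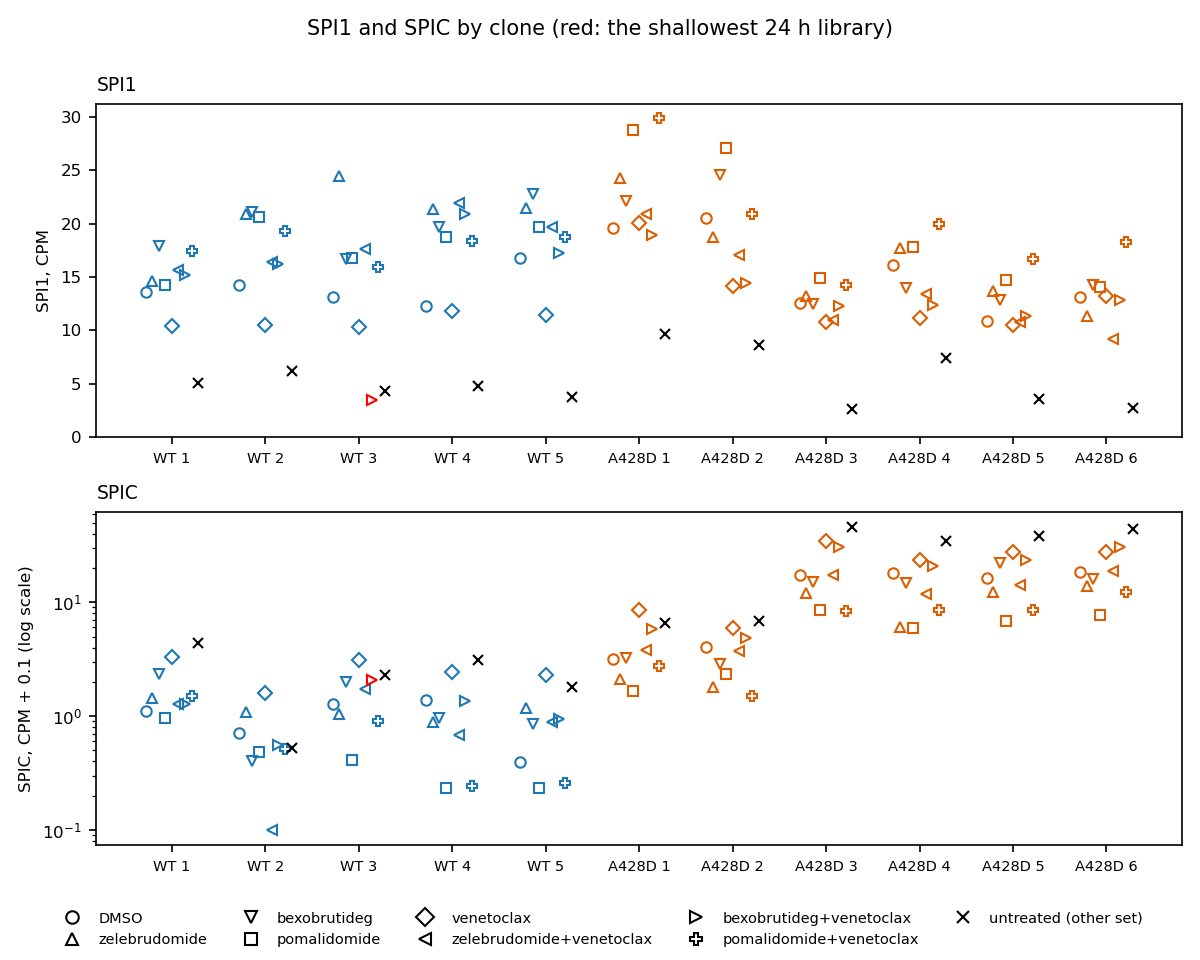
SPI1 (top, CPM) and SPIC (bottom, CPM + 0.1 on a log scale) by clone, with 1 symbol per condition, untreated cultures in black and the shallowest 24 h library in red. A428D clones 3 to 6 hold SPIC at 5.85 to 34.4 CPM in the 24 h set, clones 1 and 2 at 1.41 to 8.51 and WT clones at 0 to 3.22.

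Within a genotype, SPIC was higher with venetoclax and lower with pomalidomide in every clone, and neither difference from DMSO passed the edgeR test over all groups without clone as a block, while both did with it. With no expression filter and no block, venetoclax passed in WT (1.44, adjusted p = 1.25e-05) and A428D (0.76, adjusted p = 9.69e-06) and pomalidomide in A428D (-1.20, adjusted p = 1.54e-11) but not in WT (-1.25, adjusted p = 0.0843). With only the compared groups in the fit, venetoclax in WT passed (1.43, adjusted p = 0.000464). With venetoclax WT clones measured 3.22, 1.5, 3.02, 2.32 and 2.18 CPM, all above every DMSO library (1.41 ± 0.82, adjusted p = 0.186; with clone as a block, 1.42, adjusted p = 3e-05). A428D clones measured 8.51, 5.88, 34.4, 23.3, 27.7 and 27.4 CPM, each above its own DMSO value (0.73 ± 0.42, adjusted p = 0.239; with clone as a block, 0.76, adjusted p = 6.31e-08). With pomalidomide A428D clones measured 1.55, 2.25, 8.37, 5.85, 6.77 and 7.65 CPM, each below its own DMSO value (-1.22 ± 0.47, adjusted p = 0.102; with clone as a block, -1.23, adjusted p = 5.6e-12). The WT clones then held 1 to 7 counts, 0.135 to 0.861 CPM (-1.23 ± 1.19, adjusted p = 0.664; with clone as a block, -1.23, adjusted p = 0.0403). In 1 library, WT clone 2 with zelebrudomide and venetoclax, SPIC had 0 counts, which allows up to 0.849 CPM (3 counts; counting error only).

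With zelebrudomide SPIC was lower than with DMSO in 6 of 6 A428D clones (1.7 to 13.8 CPM; -0.68 ± 0.45, adjusted p = 0.756; with clone as a block, -0.70, adjusted p = 3.05e-05), and bexobrutideg did not pass in either fit (-0.06 ± 0.44, adjusted p = 1; with clone as a block, -0.05, adjusted p = 0.997). The single within-genotype comparison that passed without the block was pomalidomide added to venetoclax in A428D clones, from 5.88 to 34.4 down to 1.41 to 12.1 CPM (-1.60 ± 0.45, adjusted p = 0.0127; up to 0.0692 without A428D clone 3).

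**Figure D4:**
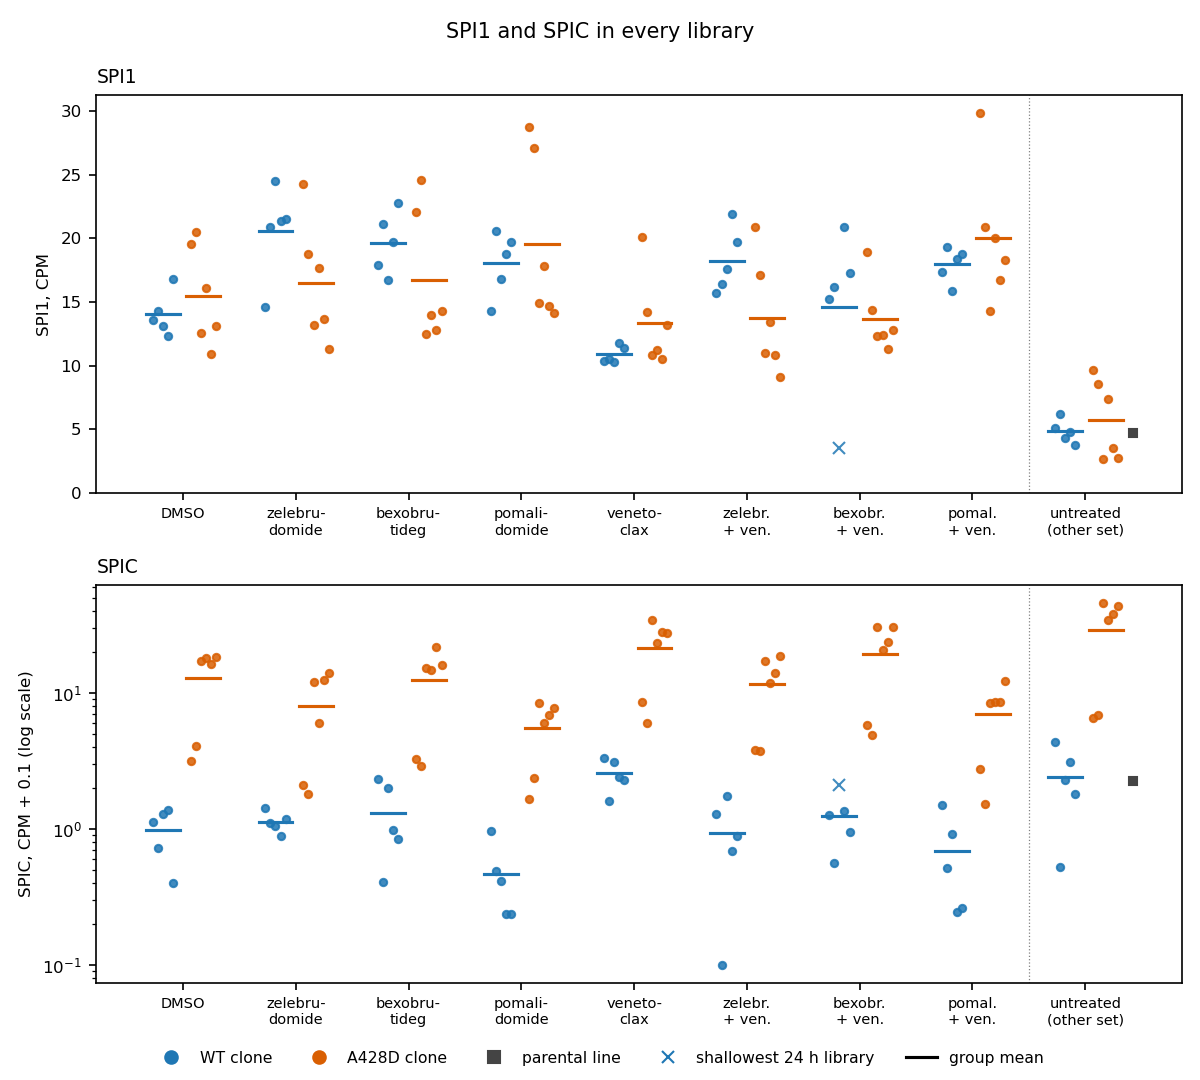
SPI1 (top, CPM) and SPIC (bottom, CPM + 0.1 on a log scale) in every library by condition, WT in blue, A428D in orange, group means as bars, untreated cultures as a separate set at the right. SPIC is separate between genotypes in all 9 conditions, whereas SPI1 ranges overlap. With pomalidomide and venetoclax the SPIC ranges nearly touch, at 1.39 CPM in WT and 1.41 CPM in A428D, with 8 counts each.

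Ranked by group mean over the 16 groups, IRF8 ran from 68.5 CPM (WT, bexobrutideg with venetoclax, shallowest library included; 57.8 without it) to 11.7 (WT, pomalidomide with venetoclax), a 5.85-fold span. Of its 15 pairs of neighbours 14 overlapped, the exception being A428D with zelebrudomide and venetoclax (24.9) and A428D with pomalidomide (15.1). SPIB spanned 1.81-fold, SPI1 1.89-fold and SPIC 58.1-fold, and for each all 15 neighbour pairs overlapped. The correlation of group means (log2 of CPM + 1, 16 groups that share clones and controls) was 0.728 between SPIB and SPIC, 0.606 between IRF8 and SPIB, 0.197 between IRF8 and SPIC, -0.338 between SPI1 and SPIC, -0.461 between IRF8 and SPI1 and -0.621 between SPI1 and SPIB. Without the shallowest library these 6 values were 0.678, 0.718, 0.21, -0.394, -0.393 and -0.658.

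Read against all genes tested at the same threshold, the count of these genes called per comparison was as follows. Against DMSO in WT, 2 of 4 passed with zelebrudomide (6.57% of 14962 genes), 0 with bexobrutideg (2.45%), 2 with pomalidomide (9.99%), 1 with venetoclax (32.8%), and 2 each when venetoclax was joined by zelebrudomide (23.4%), bexobrutideg (21.3%) or pomalidomide (36.8%). Both calls with bexobrutideg and venetoclax rest on the shallowest library, and without it 0 of 4 passed there. In A428D, 1 passed with zelebrudomide (2.06%), 2 with pomalidomide (8.68%), 0 with venetoclax (16.8%), and 2, 1 and 2 with the combinations in the same order (26.2%, 15.7% and 30.4%). Bexobrutideg alone in A428D called none of these 4 and 0% of all genes by edgeR (288 genes at an unadjusted p under 0.05; 0 by DESeq2; 2 with clone as a block). The counts of these genes above are from the fit without clone as a block. With clone as a block the share of all genes called was 16.2%, 10.6% and 19.2% in WT and 6.73%, 0.0134% and 16.7% in A428D for zelebrudomide, bexobrutideg and pomalidomide. In that fit SPI1 also passed with each of these compounds in WT and with pomalidomide in A428D. SPIC also passed with pomalidomide in both genotypes, and SPIB and SPIC with zelebrudomide in A428D.

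Between compounds in WT, 1 of 4 passed for zelebrudomide against bexobrutideg (1.23%), for zelebrudomide against pomalidomide (7.43%) and for bexobrutideg against pomalidomide (16.1%), in each case IRF8. In A428D it was 1, 1 and 2 (1.24%, 0.842% and 7.85%). When a compound was added to venetoclax, 1, 1 and 2 passed in WT for zelebrudomide, bexobrutideg and pomalidomide (21.2%, 15.5% and 8.41%), and in A428D 1 with zelebrudomide (1.07%), 3 with pomalidomide (7.91%) and none with bexobrutideg (0% of all genes by edgeR, 232 at an unadjusted p under 0.05, 0 by DESeq2 and 0 with clone as a block). When venetoclax was added to a compound, none of the 4 passed in either genotype, while 12.5%, 18.8% and 20.1% of all genes did in WT and 20.7%, 19.7% and 17.1% in A428D for zelebrudomide, bexobrutideg and pomalidomide. With clone as a block, SPIC passed in A428D when venetoclax was added to zelebrudomide (0.54, adjusted p = 0.000493) or bexobrutideg (0.63, adjusted p = 5.33e-06), and SPI1 was lower for the same 2 additions (-0.27, adjusted p = 0.0442; -0.28, adjusted p = 0.0367).

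For the difference in response between genotypes, 1 of 4 passed for bexobrutideg with venetoclax (1.94%, IRF8, above) and none for zelebrudomide (1.04%), bexobrutideg (0.615%), zelebrudomide with venetoclax (3.32%) or pomalidomide with venetoclax (0.00668%). For pomalidomide alone and venetoclax alone edgeR called 0% of all genes (253 and 709 at an unadjusted p under 0.05; 0 and 0 by DESeq2; 7 and 26 with clone as a block). For A428D against WT, 1 of 4 passed with DMSO (7.13%), pomalidomide (3.46%), venetoclax (5.37%), bexobrutideg with venetoclax (1.93%), pomalidomide with venetoclax (2.52%) and no treatment (5.9%), 2 with zelebrudomide (13%) and bexobrutideg (12.3%), and 3 with zelebrudomide and venetoclax (22.9%).

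Among 7 other IRF family genes tested of 8 listed, IRF4, the partner of Spi-B in this lymphoma type, fell in WT clones with zelebrudomide (-1.19 ± 0.15, adjusted p = 1.11e-08) and bexobrutideg (-1.02 ± 0.15, adjusted p = 2.45e-06). IRF8 passed with the first of these and not with the second. IRF2, a repressor of interferon genes, fell with zelebrudomide in WT (-0.47 ± 0.07) and with pomalidomide in both genotypes (-0.46 ± 0.07 and -0.29 ± 0.06). IRF7, an activator of interferon genes, rose with pomalidomide in both (0.54 ± 0.16 and 0.83 ± 0.14). The list thus gave 0 up and 2 down with zelebrudomide (6.57% of all genes called), 0 and 1 with bexobrutideg (2.45%) and 1 and 1 with pomalidomide (9.99%) in WT. In A428D it gave only the pomalidomide pair (8.68%). Its median log2 fold change lay between -0.0085 and 0.07, near that of all genes (-0.02 to -0.00067). With clone as a block the list gave 3 up and 3 down with zelebrudomide in WT (16.2% of all genes called).

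Of 13 other ETS genes tested of 14 listed, at most 2 passed in any comparison against DMSO with these 3 compounds, a share near the 9.99% of all genes called with pomalidomide in WT. There 3 fell without the shallowest library (12.1% of all genes called), and 1 rose and 3 fell with clone as a block (19.2%). ETS1, a lymphocyte ETS factor, fell with pomalidomide in both genotypes (-0.71 ± 0.10, adjusted p = 1.37e-07; -0.68 ± 0.10, adjusted p = 5.61e-08) and with zelebrudomide in A428D (-0.35 ± 0.10). GABPA, a broadly expressed ETS factor, fell in WT with zelebrudomide (-0.55 ± 0.14) and pomalidomide (-0.42 ± 0.13), and ELF4 rose with pomalidomide in A428D (0.57 ± 0.11).

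Among 22 B cell regulators that act with IRF8 or PU.1, 2 rose and 5 fell with zelebrudomide in WT (6.57% of all genes called), 0 and 5 with bexobrutideg (2.45%), and 6 and 2 with pomalidomide (9.99%). In WT the counts with clone as a block were 2 and 7 (16.2% of all genes called), 1 and 7 (10.6%), and 6 and 5 (19.2%). The list median with pomalidomide in WT was -0.12 in the fit without the block. In A428D the counts were 2 and 0 (2.06%), 0 and 0 (0%), and 4 and 1 (8.68%). With clone as a block they were 5 and 2 with zelebrudomide (6.73%) and 5 and 5 with pomalidomide (16.7%). IKZF1 transcript, which encodes Ikaros, rose with zelebrudomide (WT 0.59 ± 0.07, A428D 0.71 ± 0.06) and pomalidomide (0.93 ± 0.07 and 0.90 ± 0.06). BATF3, an AP-1 factor that pairs with IRF8 in dendritic cells, rose with pomalidomide (1.49 ± 0.23 and 1.00 ± 0.21) and with zelebrudomide in A428D (0.73 ± 0.21), and fell with bexobrutideg in WT (-0.95 ± 0.28). POU2AF1, a B cell coactivator, fell with pomalidomide (-0.69 ± 0.12 and -0.52 ± 0.11). PAX5 and EBF1, which define B cell identity, fell with zelebrudomide in WT (-0.55 ± 0.13 and -0.50 ± 0.12), as did CEBPB (-1.24 ± 0.16) and BATF (-0.70 ± 0.14).

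Of 28 genes tested among 30 B cell genes reported as targets of PU.1, Spi-B or IRF8, 2 rose and 7 fell with pomalidomide in WT and 1 rose and 8 fell in A428D, with a median of -0.21 and -0.22 beside -0.0074 and -0.02 over all genes. Of all genes, 5.36% rose and 4.63% fell in WT and 4.92% rose and 3.76% fell in A428D. In the fit with clone as a block 2 rose and 12 fell in WT (19.2% of all genes called) and 2 rose and 13 fell in A428D (16.7%). Without the shallowest library the counts were 3 and 9 (12.1%), and 2 and 11 (10.4%). P2RY10, a lysophospholipid receptor gene of B cells, fell in WT (-1.25 ± 0.24) and A428D (-1.05 ± 0.21). CD22, an inhibitory receptor, fell in both (-0.65 ± 0.15 and -0.53 ± 0.13), CD72 (-0.70 ± 0.16) and NCF1, an oxidase subunit with near-identical copies whose count is uncertain (-0.66 ± 0.18), are named from WT, and BCL2A1 (-0.83 ± 0.21) and LY86 (-0.57 ± 0.14) from A428D. The inhibitory Fc receptor gene FCGR2B rose in both (0.51 ± 0.15 and 0.67 ± 0.15). With zelebrudomide 0 rose and 4 fell in WT (BCL2A1, NFKB1, CD180 and CIITA, the class II transactivator, at -0.45 ± 0.13). Of all genes 3.05% rose and 3.52% fell there. None passed in A428D (2.06% of all genes called), where 9 fell with clone as a block (6.73%). With bexobrutideg none passed by edgeR in WT (2.45% of all genes called) or in A428D (0%). With clone as a block, 2 rose and 3 fell in WT (10.6%).

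In the comparison of genotypes, 4 of these 28 target genes were higher and 1 lower in A428D with DMSO. Of all genes, 3.3% were higher and 3.83% lower there. In untreated cultures 9 were higher and 0 lower, and of all genes 3.5% were higher and 2.4% lower. The list medians were 0.1 and 0.11 beside 0.0036 and 0.0043 over all genes. Of 8 genes tested among 12 that Spi-C, heme or iron handling involve, HMOX1, which breaks down heme, and FTH1, a ferritin chain, rose with pomalidomide in WT (0.85 ± 0.17 and 0.81 ± 0.12) and A428D (0.51 ± 0.15 and 0.37 ± 0.11). These were 2 of 8 in each genotype, beside 9.99% of all genes called in WT and 8.68% in A428D. Pomalidomide was the 24 h condition with the lowest mean SPIC in each genotype, and a link to SPIC was not tested. With clone as a block 6 of the 8 rose and 1 fell in WT (19.2% of all genes called) and 3 rose in A428D (16.7%). TFRC, the transferrin receptor gene, fell in WT with zelebrudomide (-0.84 ± 0.12) and bexobrutideg (-1.02 ± 0.12). With A428D against WT under DMSO, 0 of the 8 rose and 1 fell (7.13% of all genes called), beside the 13.6-fold difference in SPIC.

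Among 7360 genes with a symbol and a mean of at least 10 CPM, the 5 most like IRF8 over the 16 group means (Pearson r of log2 of CPM + 1) were SSPN (0.961), RTN4IP1 (0.959), TLE1 (0.953), EXT1 (0.951) and TNFRSF13B (0.949). Within the 8 WT groups their r was 0.94 to 0.984 and within the 8 A428D groups 0.963 to 0.99. For SPI1 they were IL10RA (0.949), OAS2 (0.934), EEPD1 (0.932), POLD4 (0.929) and NCF4 (0.91), and for SPIB MAP2K3 (0.969), ZMAT5 (0.951), TMEM184B (0.949), SERPINB9 (0.936) and RNF141 (0.935). For SPIC they were PIR (0.961), SP140 (0.948), STAT3 (0.947), H2AZ2 (0.942) and SP110 (0.939), and for these r ran from -0.061 to 0.735 within the WT groups and from 0.449 to 0.926 within the A428D groups. Without the shallowest library these genes were no longer among the first 5: TLE1 and EXT1 for IRF8 (ranks 7 and 6), EEPD1 and NCF4 for SPI1 (9 and 14), TMEM184B, SERPINB9 and RNF141 for SPIB (17, 7 and 18), and STAT3 and SP110 for SPIC (12 and 8). Groups of the same genotype share clones, the groups differ in depth, and these values describe them only.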

How the data were processed

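The authors deposited a table of estimated counts per gene for 100 libraries; 8.75% of the values were not whole, and all were rounded, which changed the total by -0.00678%. Per the submitters' processing notes, the named tools, with no role given, are STAR 2.7.11, fastp 0.24.0, featureCounts, Subread 2.1.1, MultiQC 1.32, SAMtools 1.22.1, FastQC 0.12.1 and edgeR, and the build is GRCh38. The strand setting was not given in the sources used here. Groups came from the labels, and 92 spike-in rows were dropped. Each replicate is 1 clone, and whether a clone's conditions came from separate cultures was not stated. The main tests do not use the pairing by clone, and their p-values measure the spread between clones. With clone as a block, p-values measure the spread left after each clone's own level is removed.

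The 24 h libraries were fitted together in edgeR 4.0.16 (R 4.3.3) with TMM scaling, its expression filter (count minimum 10, total 15; 14962 genes kept) and the robust quasi-likelihood test, adjusted by Benjamini-Hochberg over all genes; adjusted p under 0.05 was called. Genotypes were fitted within each condition. Levels are CPM on TMM-scaled sizes, with the untreated set scaled apart. SE is the log2 fold change over the root of F.

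Alternatives were DESeq2 1.42.0, its size factors, no filter, each clone left out, clone as a block, the compared groups alone and, in part added after seeing the data, the shallowest library left out. The same clones received every condition, and over 500 genes 87 of 88 libraries deviated most like another of their own clone (median r 0.72, against -0.17 for other clones), so the clone numbers pair the libraries. The edgeR test was also run on simulated pairs of groups, with independent libraries, a single spread for all genes and no clone effects. That run does not cover the pairing by clone, the joint fit of 16 groups or the outlying library.

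Members and gene lists were chosen with earlier results of these data known. Named list genes are the called ones with the largest changes per direction, up to 4 per list for zelebrudomide, bexobrutideg or pomalidomide against DMSO, and BCL6 is in 2 lists; likeness was ranked by Pearson r over group means. Counting intervals cover counting error only.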

Additional observations from a re-analysis of the deposited data

Results flagged for a closer look

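Of 72 checks of a gene within a group, 3 had a single library far from the others, where chance gives about 1 in 20. IRF8 in WT clone 3 with bexobrutideg and venetoclax was at 111 CPM, against 50.6 to 64.7 in the other 4 clones. SPIB in the same library, the shallowest of the 24 h set, was at 127 CPM, against 611 to 674. SPIB in A428D clone 3 with pomalidomide was at 423 CPM, against 539 to 577 in the other 5 clones. The IRF8 response to bexobrutideg with venetoclax differed between the genotypes by an interaction test, -0.70 on the log2 scale for A428D minus WT (adjusted p = 0.00932 by edgeR), and by -0.47 (adjusted p = 0.0753) without the shallowest library.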

How the results depend on the processing

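With clone as a replicate block, SPI1 against DMSO in WT passed for zelebrudomide (0.56), bexobrutideg (0.49) and pomalidomide (0.37) and in A428D for pomalidomide (0.33). So did SPIB with zelebrudomide in A428D (-0.38), SPIC with pomalidomide in WT (-1.23), and SPIC with zelebrudomide (-0.70) and pomalidomide (-1.23) in A428D. With the block and without the shallowest library the SPI1 values were 0.57, 0.51, 0.37 and 0.34, SPIB was -0.37 with zelebrudomide in A428D and -0.32 with bexobrutideg in WT, and SPIC was -1.23, -0.68 and -1.22. Without that library alone, SPIB was -0.32 with bexobrutideg in WT and -0.37 with zelebrudomide in A428D. In fits of the compared groups alone SPI1 in WT was 0.58, 0.50 and 0.38, and SPIB was -0.32 and -0.37. With no expression filter, SPI1 with zelebrudomide in WT was 0.54, SPIC in A428D was -0.65 with zelebrudomide and -1.20 with pomalidomide, and untreated SPIB was 0.20 for A428D against WT. DESeq2 called untreated SPIB (0.19) and IRF8 (0.39, adjusted p = 0.0434) for A428D against WT. One value changed sign: SPIB in WT for bexobrutideg with venetoclax against bexobrutideg went from -0.08 to 0.14 (adjusted p = 0.0127) with the block and without the shallowest library.

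Leaving out 1 clone at a time changed calls in these ranges: untreated IRF8 0.34 to 0.50, SPIB 0.16 to 0.23 and SPIC 3.38 to 3.97 and DMSO SPIB 0.14 to 0.22 for A428D against WT; SPI1 with zelebrudomide in WT 0.47 to 0.66; SPIB with bexobrutideg in WT -0.35 to -0.32 and with zelebrudomide in A428D -0.38 to -0.35. DESeq2's size factors moved the median of all genes by at most 0.01. SPIC in WT rests on at most 24 counts per 24 h library, so changes there are the least precise.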

Other observations

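Under venetoclax alone, where 32.8% of all genes were called in WT and 16.8% in A428D, the IRF genes moved in both directions; the genes named here were chosen after their values were seen. IRF7 fell (-1.21 ± 0.17 in WT and -0.85 ± 0.16 in A428D), as did IRF9, a subunit of the interferon-stimulated complex ISGF3 (-0.81 ± 0.14 and -0.50 ± 0.13), and IRF1 (-0.57 ± 0.21 and -0.71 ± 0.21). IRF2 fell in WT (-0.36 ± 0.07). IRF4 rose in both (0.43 ± 0.15 and 0.48 ± 0.14) and IRF5 in WT (0.53 ± 0.15). Of the 7 IRF genes tested, 2 rose and 4 fell in WT and 1 rose and 3 fell in A428D, and of the 13 other ETS genes 0 rose in either genotype while 7 and 4 fell. Of the 28 target genes of PU.1, Spi-B or IRF8, 3 rose and 11 fell in WT and 1 rose and 5 fell in A428D, with medians of -0.38 and -0.23 beside -0.06 and -0.04 over all genes. HMOX1 fell in both (-0.87 ± 0.17 and -0.69 ± 0.16), in the condition with the highest SPIC mean of each genotype in the 24 h set. Of the 8 Spi-C, heme or iron genes tested, 0 rose in either genotype, while 4 fell in WT and 2 in A428D. A link to SPIC was not tested.

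In untreated cultures, 9 of the 28 target genes were higher in A428D than in WT clones and 0 lower, beside 5.9% of all genes called in either direction (3.5% higher and 2.4% lower). They include CD180, a toll-like receptor relative (1.00 ± 0.13, adjusted p = 0.00031), CD72 (0.80 ± 0.09, adjusted p = 0.000128), the class II chaperone gene CD74 (0.59 ± 0.10) and its regulator CIITA (0.45 ± 0.08), LY86 (0.50 ± 0.10) and BCL6 (0.44 ± 0.10). CD180, CD72, CD74 and CIITA also passed with DMSO, at 0.42 ± 0.10, 0.44 ± 0.07, 0.33 ± 0.06 and 0.30 ± 0.08, while FCGR2B was lower (-0.51 ± 0.13). Adjusted p-values are from edgeR's quasi-likelihood test, and each replicate is 1 clone.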
